A study of Rattus norvegicus with 15 samples.

Results

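The genes for the subunits of the proteasome were followed over the 5 days of the culture. A gene was a member when the symbol of its probe in the platform annotation began with Psma, Psmb, Psmc, Psmd, Psme, Psmf or Psmg. The rule found 44 of the 22523 probes of the array, for 43 of its 13337 named genes, and a gene with several probes was represented by the brightest, which concerned Psmb10. The members comprised 7 genes of the alpha ring and 7 of the constitutive beta ring of the 20S core, 6 ATPases and 10 other subunits of the 19S cap, the 5 inducible subunits Psmb8, Psmb9, Psmb10, Psme1 and Psme2, 4 assembly chaperones (Psmd5, Psmd9, Psmg1 and Psmg2) and the activator Psme4. They also comprised Psma8 and Psmb11, subunits of testis and thymus that were detected on 0 of 15 arrays, and Psmc3ip, a cofactor of meiotic recombination that shares only its symbol with the family. Of the 43 genes, 37 were detected on all 15 arrays, a probe being detected on an array at a detection p under 0.01. Psmd10, Psmd14, Psme3, Psmf1, Psmg3 and Psmg4 had no named probe and were not analysed here.

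Alveolar epithelial type 2 (AT2) cells of male rats, purified from the lung, were left to differentiate in culture with nothing else added, and total RNA was taken at isolation (D0) and on D2, D4, D6 and D8, when the cells are called AT1-like. No strain, age or genotype is given in the labels, each day had 3 Illumina RatRef-12 arrays, and D0 served as the AT2 state against which every later day was read. The cultures are a model of differentiation in the absence of the other cells of the alveolus, and purification can leave some of those cells behind. The labels do not say that the 3 arrays of a day came from separate animals, so p-values measure the spread between these arrays.

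The proteasome is the barrel-shaped protease that degrades ubiquitin-tagged proteins. Its 20S core is built of alpha and beta rings, the catalytic sites lie on the beta subunits Psmb5, Psmb6 and Psmb7, and the 19S cap binds, unfolds and feeds the substrate. Interferons induce the alternative catalytic subunits Psmb8, Psmb9 and Psmb10, which replace Psmb5, Psmb6 and Psmb7 in newly made cores (the immunoproteasome), and the activator formed by Psme1 and Psme2, and together these favour peptides that fit MHC class I.

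Promoter sequences of the 5 inducible genes, and of Psmd7 and Psmb5 as members of the cap and of the constitutive core, are shown because the results that follow turn on these genes and their constitutive counterparts. They were taken from RefSeq on build GRCr8, where 39 of the 43 members matched. Each line runs 5′ to 3′ on the strand of the gene, from 100 bases before its start to the first 10 bases of the transcript, and capitals mark a match to GAAA followed after any 2 bases by GAAA (the GAAA repeat, core of the interferon-stimulated response element) or TGACNNNGC (core of the antioxidant response element), searched on both strands.
Psme2 (chr15:33052742-33052851, minus strand): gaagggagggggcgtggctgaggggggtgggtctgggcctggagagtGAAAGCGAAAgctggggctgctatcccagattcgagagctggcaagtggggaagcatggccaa
Psmb10 (chr19:50743283-50743392, minus strand): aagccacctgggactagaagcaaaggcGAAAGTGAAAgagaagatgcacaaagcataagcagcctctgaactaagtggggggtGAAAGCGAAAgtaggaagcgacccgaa
Psmb8 (chr20:4657022-4657131, minus strand): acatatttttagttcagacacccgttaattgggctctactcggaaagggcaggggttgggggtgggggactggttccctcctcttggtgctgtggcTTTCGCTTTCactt
Psmb9 (chr20:4668900-4669009, plus strand): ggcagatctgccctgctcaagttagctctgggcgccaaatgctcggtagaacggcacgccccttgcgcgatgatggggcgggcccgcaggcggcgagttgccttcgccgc
Psme1 (chr15:33038871-33038980, plus strand): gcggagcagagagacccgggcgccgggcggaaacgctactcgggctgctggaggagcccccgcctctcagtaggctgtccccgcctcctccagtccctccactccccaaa
Psmd7 (chr19:52411307-52411416, minus strand): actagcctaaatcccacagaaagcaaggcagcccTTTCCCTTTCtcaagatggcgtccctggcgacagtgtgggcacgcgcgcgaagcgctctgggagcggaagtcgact
Psmb5 (chr15:32047370-32047479, minus strand): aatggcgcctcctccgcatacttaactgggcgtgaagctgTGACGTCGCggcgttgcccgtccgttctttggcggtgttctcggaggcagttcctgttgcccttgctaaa

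The GAAA repeat began at position -53 in Psme2, at -73 and -17 in Psmb10 and at -4 in Psmb8, where it spans the start on the opposite strand. In windows of 250 bases before to 50 bases after the start, it was found in 6 of 39 member promoters (15.4%), against 1312 of all 33469 promoters (3.92%). These 6 were 3 of the 5 inducible genes and 3 of the 27 core and cap genes with a promoter (Psma4, Psmb3 and Psmd7), while Psmb9 and Psme1 held no match. The letters TGACNNNGC were found in 8 of 39 member promoters (20.5%), against 4038 of all promoters (12.1%), in 0 of 5 inducible genes and 6 of 27 core and cap genes. TTCNNNGAA (core of the gamma-activated site) was found in 4 of 39 (10.3%), against 2970 of all promoters (8.87%). In no member promoter did matches to different motifs overlap. A match describes these letters in this window and was not tested as a binding site. In the rat genome Tap2, Psmb8, Tap1 and Psmb9 lie beside one another on chromosome 20, in the class II region of the major histocompatibility complex.

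Between 7615 and 9787 probes were detected per array. The markers of the cell states moved as the labels of the days imply: all 5 measured AT2 markers fell between D8 and D0, with the surfactant gene Sftpc lower by 9.51 on the log2 scale, and 6 of 8 AT1 markers rose, with the water channel gene Aqp5 higher by 3.11 (limma, adjusted p = 1.15e-08 and 9.15e-05). The 15 arrays lay on 3 slides: slide 1 held 2 arrays of every day, slide 2 held the third array of D2 and D4, and slide 3 the third array of D0, D6 and D8. On the slide 2 or 3 array the members were dimmer than on the slide 1 arrays of the same day: 38 of 43 members at D0 (median -0.28 on the log2 scale), 40 members on D2 (-0.44), 36 on D4 (-0.16), 31 on D6 (-0.21) and 39 on D8 (-0.19). Each day had the same balance of slide 1 against the others, so a fit with slide group as a term gives the same changes, and its calls are given beside the main ones. The term sets slide 1 against slides 2 and 3 together. A difference between slides 2 and 3 therefore stays in the comparisons of D2 with D0 or D8. In RNA of bulk samples, fewer cells of a type and less RNA per cell cannot be told apart.

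The inducible subunits had the highest class median at D2, 1.12 above D0 on the log2 scale, and a class median of 0.06 between D8 and D0. Psme2, Psmb10 and Psmb8 rose between D2 and D0, by 2.80-, 2.36- and 2.10-fold, and Psme2 was then lower at D8 than at D2. Levels below are VSN signals, a log2-like scale on which the arrays were made comparable, with the 2 arrays of slide 1 first and the array of slide 2 or 3 last.

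Psme2, the beta subunit of the interferon-induced activator, read 10.64, 10.52 and 10.06 at D0, 12.22, 12.02 and 11.43 at D2, 11.20, 11.17 and 11.08 on D4, 11.04, 11.05 and 11.05 on D6, and 11.01, 10.96 and 10.75 on D8. Every D2 array lay above every array of the other days, and the D4, D6 and D8 arrays all lay above those of D0. The change was 1.48 ± 0.23 for D2 against D0 (SE, 3 arrays a day; limma, adjusted p = 0.000239) and -0.98 ± 0.23 for D8 against D2 (adjusted p = 0.0333). Between D8 and D0 it was 0.50 (adjusted p = 0.161). The call between D8 and D2 was lost on leaving out any of 5 of the 6 arrays (adjusted p up to 0.163). It held without the slide 2 array of D2 and with slide group as a term (adjusted p = 0.00391).

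Psmb10, the inducible subunit that takes the place of Psmb7, read 11.87, 12.01 and 11.46 at D0, 13.17, 13.37 and 12.51 at D2, 12.45, 12.72 and 12.47 on D4, 12.44, 12.61 and 12.30 on D6, and 12.36, 12.46 and 12.40 on D8. All arrays of D2 to D8 lay above the D0 arrays, and only the slide 2 array of D2 overlapped later days. The change was 1.24 ± 0.24 between D2 and D0 (adjusted p = 0.00149). Between D8 and D0 it was 0.63 ± 0.24 (adjusted p = 0.0863), which passed with slide group as a term (adjusted p = 0.0218). The dimmer second probe of Psmb10 rose by 1.34 between D2 and D0 (adjusted p = 0.00259).

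Psmb8, which takes the place of the chymotrypsin-like subunit Psmb5, read 11.36, 11.45 and 10.83 at D0, 12.50, 12.59 and 11.76 at D2, 11.79, 12.04 and 11.42 on D4, 11.29, 11.65 and 11.26 on D6, and 11.36, 11.31 and 11.14 on D8. The D2 arrays lay above those of D0 and of D8, while D8 and D0 overlapped. The change was 1.07 ± 0.26 between D2 and D0 (adjusted p = 0.00919), and the call was lost without the slide 1 array of D2 that read 12.59 (adjusted p = 0.0503). Between D8 and D2 Psmb8 differed by -1.01 (adjusted p = 0.0604, and 0.00346 with slide group as a term). Between D8 and D0 the difference was 0.06 ± 0.26 (adjusted p = 0.936).

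Psmb9, which takes the place of Psmb6, read 8.25, 8.74 and 7.0 at D0, 9.28, 9.37 and 8.70 at D2, 8.62, 8.88 and 7.37 on D4, 8.34, 8.61 and 7.03 on D6, and 7.98, 8.30 and 7.01 on D8. The slide 2 or 3 array was more than a unit below the slide 1 arrays on D0, D4 and D6, so the spread within a day was wide, and 1 D2 array lay below the highest D0 array. The change between D2 and D0 was 1.12 ± 0.53 (adjusted p = 0.193). With slide group as a term the same change passed (adjusted p = 0.00135), as did the difference of -1.36 between D8 and D2 (adjusted p = 0.002, and 0.286 without the term).

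Psme1, the alpha subunit of the same activator as Psme2, read 13.74, 13.87 and 13.63 at D0, 14.25, 14.43 and 14.00 at D2, 13.66, 13.73 and 13.66 on D4, 13.52, 13.76 and 13.81 on D6, and 13.66, 13.78 and 13.67 on D8. The D2 arrays lay above all others, and the remaining days overlapped. The change between D2 and D0 was 0.48 ± 0.18 (adjusted p = 0.0877, and 0.0412 with slide group as a term), and between D8 and D0 it was -0.05 (adjusted p = 0.92).

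**Figure D1:**
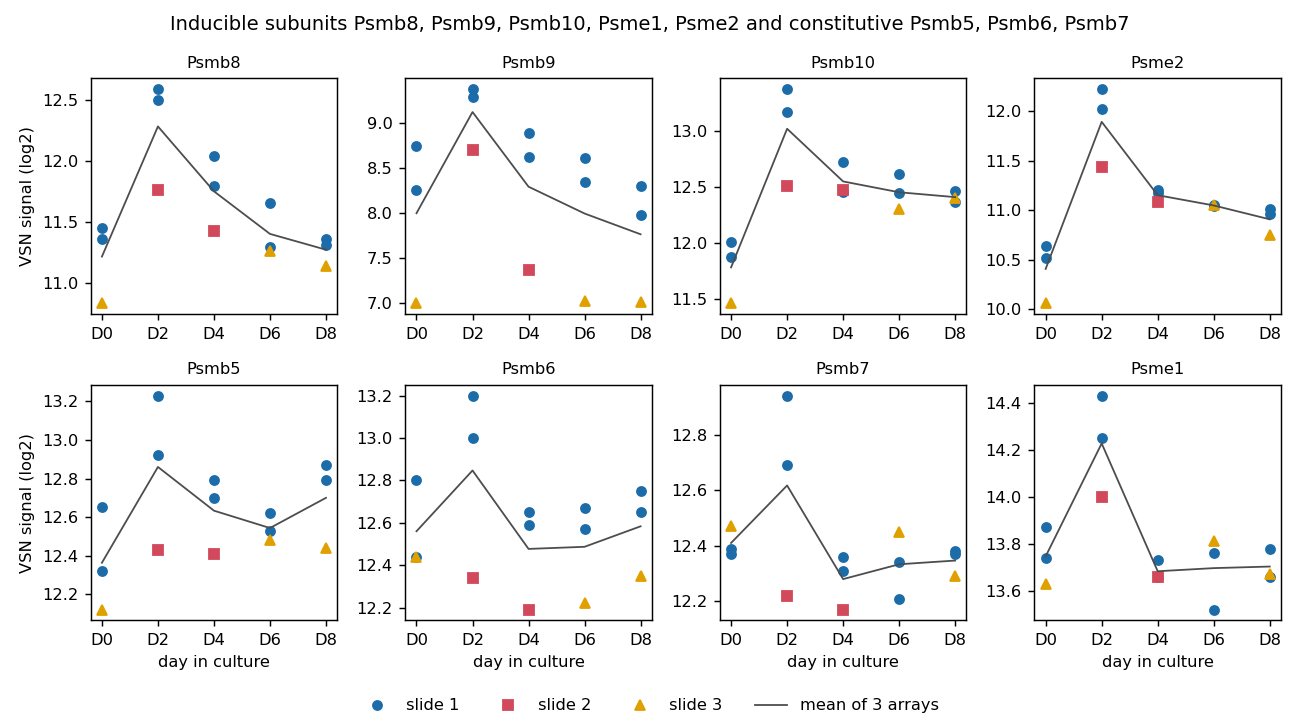
VSN signal (log2) of the 5 inducible subunits and of Psmb5, Psmb6 and Psmb7 on each of the 15 arrays, by day in culture. Points are arrays, shaped and coloured by slide, and the line joins the means of 3 arrays; the mean of each of the 8 genes is highest at D2, and the slide 2 and 3 arrays are mostly the lowest of their day.

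None of the 3 constitutive catalytic subunits passed between D2 and D0 or between D8 and D0. Psmb5 read 12.92, 13.23 and 12.43 at D2 against 12.32, 12.65 and 12.12 at D0, a difference of 0.50 ± 0.23 (adjusted p = 0.184). Psmb6, the caspase-like subunit, differed by 0.28 ± 0.25 (adjusted p = 0.55), and Psmb7, the trypsin-like subunit, by 0.21 ± 0.20 (adjusted p = 0.586). The groups overlapped for all of Psmb5, Psmb6 and Psmb7 between D2 and D0. Between D8 and D0 they differed by 0.34, 0.02 and -0.06 (adjusted p = 0.421, 0.981 and 0.907).

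The ratio of each inducible subunit to the constitutive one it replaces was taken within each array, where a shift common to the array cancels. Psmb10 over Psmb7, set to a mean of 0 at D0 on the log2 scale, read 1.11, 1.06 and 0.92 at D2 and 0.62, 0.71 and 0.74 at D8, against 0.13, 0.25 and -0.38 at D0. The D2 and D8 arrays did not overlap those of D0, and the ratio was 2.04-fold higher at D2 and 1.61-fold higher at D8 than at D0. Psmb8 over Psmb5 read 0.73, 0.51 and 0.48 at D2, -0.36, -0.33 and -0.15 at D8, and 0.19, -0.05 and -0.14 at D0. It was 1.49-fold higher at D2 than at D0 and then 0.55-fold the D2 ratio at D8, where it lay below every D0 array. Psmb9 over Psmb6 was 1.78-fold higher at D2 than at D0, with no overlap, and overlapped D0 at D8 (-0.21, 0.21 and -0.78, against 0.37, 0.50 and -0.88 at D0). The slide 3 array of D0 stood apart for this ratio, and on slide 1 alone the change between D2 and D0 was 0.35 on the log2 scale, against 0.83 over all arrays. On slide 1 alone the changes between D2 and D0 were 0.89 for Psmb10 over Psmb7 and 0.55 for Psmb8 over Psmb5. Between D8 and D0 Psmb8 over Psmb5 differed by -0.41 on slide 1 and by -0.01 on slide 3, and Psmb10 over Psmb7 by 0.47 and 1.13. Of 9 ratio comparisons, 8 had no overlap, each with p = 0.1 in a two-sided exact permutation test and 0.113 after Benjamini-Hochberg adjustment over the 9. The smallest p that 3 against 3 arrays allow is 0.1, so no ratio could pass 0.05 in this test. How often ratios of other genes separate in this way was not computed.

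**Figure D2:**
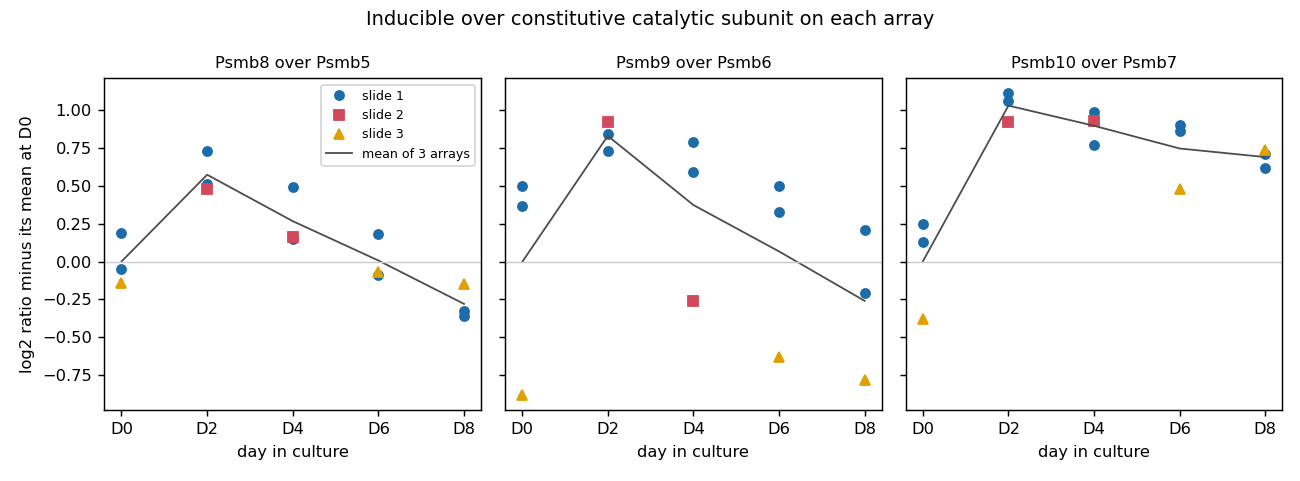
Log2 ratio of each inducible catalytic subunit to the constitutive one it replaces, minus its mean at D0, on each array by day in culture; points are arrays by slide and lines join the means. At D2 all 3 ratios are above every D0 array; at D8 only Psmb10 over Psmb7 still is, with 0.62, 0.71 and 0.74.

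Across the 43 members, 10 rose and 1 fell between D2 and D0, against 10.3% of all probes that rose and 8.15% that fell (18.5% in either direction). The 10 were 23.3% of the members, but the members are bright: of the 37 detected on all 15 arrays 8 rose (21.6%), against 22% of the 6601 probes detected on all arrays. In this fit the share of calls lay near that of equally detected probes and is no feature of the family. The direction was more uniform than the calls: 38 of 43 changes were positive, with a median of 0.50 against -0.02 over all probes and 0.15 over those detected on all arrays. In 22 of 43 members (51.2%) every D2 array lay above every D0 array, which held for 15.8% of all probes; among those detected on all arrays it was 54.1% of members and 31.7% of probes. With slide group as a term, 25 members passed (24 higher, 1 lower), against 25.5% of all probes. Of the 37 members detected on all arrays 22 passed with that term, against 49.8% of such probes. The mean was highest at D2 for 34 of the 43 members. The share of all probes with their highest mean at D2 was not computed, so this count is not read as particular to the family.

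Of the alpha ring, which forms the gate of the core, 3 of 7 genes rose at D2, and all 7 changes were positive, from 0.47 to 0.99. Psma2 read 13.61, 13.58 and 13.19 at D2 against 13.02, 12.70 and 12.56 at D0, with no overlap (0.70 ± 0.19, adjusted p = 0.019). Psma3 read 7.27, 7.54 and 7.57 at D2 against 6.74, 6.97 and 5.69 at D0, where it was detected on 2 of 3 arrays (0.99 ± 0.28, adjusted p = 0.0209). Without the slide 3 array of D0, which read 5.69, the change of Psma3 was 0.61 (adjusted p = 0.0645). Psma5 rose by 0.91 (adjusted p = 0.0183). Psma1 and Psma7 had changes as large, 0.98 each, that missed the threshold (adjusted p = 0.0747 and 0.0717) and passed with slide group as a term (adjusted p = 0.00306 and 0.000693). Each of the 3 calls, of Psma2, Psma3 and Psma5, was lost on leaving out any of 3 of the 6 arrays (adjusted p up to 0.0818).

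Of the constitutive beta ring 0 of 7 genes passed between D2 and D0, with changes from -0.28 (Psmb1) to 0.50 (Psmb5), and 1 passed with slide group as a term (Psmb5, adjusted p = 0.0423). Psmb1 read 13.78, 13.92 and 13.37 at D2 against 13.93, 14.07 and 13.90 at D0, so that these overlapped, while at D8 (13.75, 13.66 and 13.61) every array was below those of D0 (-0.30, adjusted p = 0.351). Thus the median change at D2 was 0.91 in the alpha ring and 0.28 in the beta ring, rings that stand in equal number in the assembled core. On slide 1 alone the medians were 0.74 and 0.48, a smaller gap. This contrast is between 7 and 7 probes and was not tested.

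In the 19S cap 4 of 10 non-ATPase subunits rose at D2 and all 10 changes were positive (median 0.60). Psmd7, a scaffold of the deubiquitinase in the lid, kept near its D2 level to D8. It read 11.54, 11.79 and 11.37 at D0, 12.51, 12.54 and 12.15 at D2, 12.30, 12.46 and 12.19 on D4, 12.48, 12.54 and 12.24 on D6, and 12.48, 12.55 and 12.15 on D8. All 12 later arrays lay above the 3 of D0, and the change was 0.84 ± 0.20 at D2 and 0.83 ± 0.20 at D8 (adjusted p = 0.00862 and 0.00901). Psmd8, a lid subunit, was detected on 0 of 3 arrays at D0 and 3 of 3 at D2, which gives a rise of at least 1.52-fold (adjusted p = 0.00422). Psmd13 and Psmd6, both of the lid, rose by 0.88 and 0.65 (adjusted p = 0.0225 and 0.0155), and their calls were lost on leaving out any of 4 and 2 of the 6 arrays (adjusted p up to 0.107 and 0.0586).

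The ATPases, which form the ring that unfolds the substrate, had 5 positive changes of 6 at D2, from 0.23 (Psmc1) to 0.58 (Psmc3), and none of these 5 passed. Psmc6 fell by 0.99 (adjusted p = 0.0488), but it was detected on only 1 of 3 arrays at D2 and 1 of 3 at D0, and on 9 of all 15. It read 5.86, 6.42 and 5.78 at D2 against 6.44, 7.77 and 6.83 at D0, and without the D0 array that read 7.77 the change was -0.62 (adjusted p = 0.198). Its call was lost on leaving out any of 4 of the 6 arrays. With slide group as a term Psmc2, Psmc3 and Psmc4 passed as higher (adjusted p = 0.0206, 0.0187 and 0.035).

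**Figure D3:**
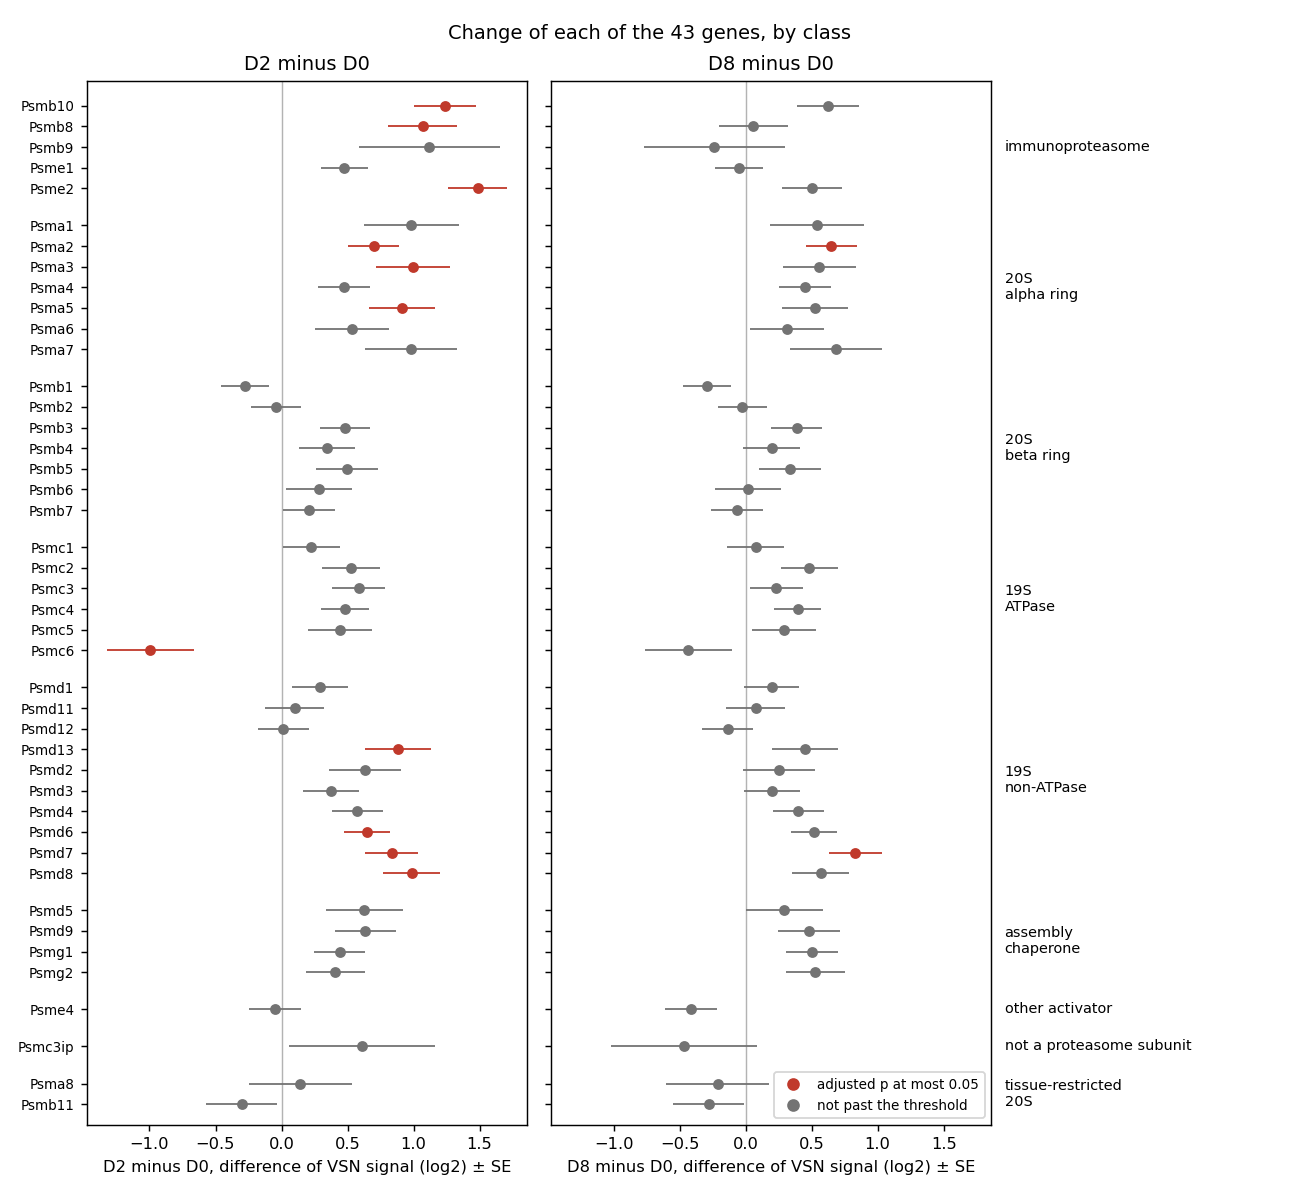
Change of each of the 43 genes for D2 minus D0 and for D8 minus D0, as a difference of VSN signal on the log2 scale with its SE, grouped by class; red points have an adjusted p of at most 0.05. At D2 10 genes are red above 0 and Psmc6 below it; at D8 Psmd7 and Psma2 are red.

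The 4 assembly chaperones had positive changes at D2, from 0.41 to 0.63, and at D8, from 0.29 to 0.53, and 0 of 4 passed in either comparison. Psmg1, which with Psmg2 guides the making of the alpha ring, read 12.14, 12.16 and 11.97 at D2, against 11.66, 11.92 and 11.37 at D0, with no overlap (0.44, adjusted p = 0.152). At D8 it read 12.31, 12.26 and 11.90 (0.50, adjusted p = 0.0964), which passed with slide group as a term (adjusted p = 0.0239). Psmg2 differed by 0.41 at D2 and 0.53 at D8 (adjusted p = 0.277 and 0.136). Psme4, a nuclear activator linked to histone breakdown, had a difference of -0.05 at D2 (adjusted p = 0.927) and at D8 read 11.90, 12.08 and 11.87 against 12.40, 12.58 and 12.11 at D0, with no overlap (-0.41, adjusted p = 0.188).

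Between D8 and D0, the comparison of AT1-like with AT2 cells, 2 of 43 members rose and 0 fell, against 9.98% of all probes that rose and 8.06% that fell (18% in either direction), and 20.9% that rose among probes detected on all arrays. Both were constitutive: Psmd7, given above, and Psma2, which read 13.47, 13.37 and 13.40 at D8 against 13.02, 12.70 and 12.56 at D0 (0.65 ± 0.19, adjusted p = 0.0286). That call of Psma2 was lost on leaving out each of 5 of the 6 arrays (adjusted p up to 0.0928). Of the 43 changes 32 were positive, with a median of 0.29 against -0.02 over all probes and 0.11 over those detected on all arrays. Without overlap 11 members lay above D0 (25.6%) and 2 below (4.65%), against 15.6% and 13.7% of all probes; among members detected on all arrays it was 27% above, against 31.1% of such probes. By class the median was 0.54 in the alpha ring, 0.49 in the chaperones, 0.33 in the non-ATPase cap, 0.26 in the ATPases, 0.06 in the inducible subunits and 0.02 in the beta ring. With slide group as a term 11 members rose, among them Psmb10, Psme2, Psma7 and Psma5, while 25.3% of all probes passed in either direction. Of the 37 members detected on all arrays 10 passed with that term, against 47.9% of such probes. On slide 1 alone and on slide 3 alone the sign of the change was the same for 35 of 43 members.

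Between D8 and D2 Psme2 was the only member to pass, as lower, against 1.38% of all probes that fell (2.49% in either direction) and 2.51% of those detected on all arrays. All 5 inducible subunits had every D8 array below every D2 array, which 8 of 43 members had (18.6%), against 9.08% of all probes, and 16.2% of the members detected on all arrays against 15% of such probes. The other 3 were Psma3, Psme4 and Psmc3ip. The class median was -0.98 in the inducible subunits, against -0.30 in the alpha ring, -0.15 in the beta ring, -0.12 in the ATPases, -0.16 in the non-ATPase cap and -0.05 in the chaperones. With slide group as a term Psmb9, Psmb8 and Psme2 passed among the inducible genes and Psmc3ip besides (5.47% of all probes passed). Of the 37 members detected on all arrays 3 passed with that term, against 10.6% of such probes. On slide 1 alone the median of the inducible subunits was 1.14 between D2 and D0 and -1.14 between D8 and D2.

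No single step after D2 passed for any member. Between D4 and D2, D6 and D4, and D8 and D6, 0 members passed in limma, against 1.37%, 0% and 0% of all probes. An unadjusted limma p under 0.05 was found for 3, 0 and 0 of the 43 members. It was found for 2161, 433 and 428 of the 22523 probes. Between D4 and D2 39 of 43 changes were negative, with a median of -0.24, and of -0.54 in the inducible subunits. The sign of that step was the same on slide 1 alone and on slide 2 alone for 27 of 43 members. With slide group as a term 2 members fell in that step, while 4.14% of all probes and 8.06% of those detected on all arrays passed in either direction. A test of any change over the 5 days passed for Psme2, Psmb10, Psmb8, Psmd7 and Psmd8 (18.1% of all probes passed).

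**Figure D4:**
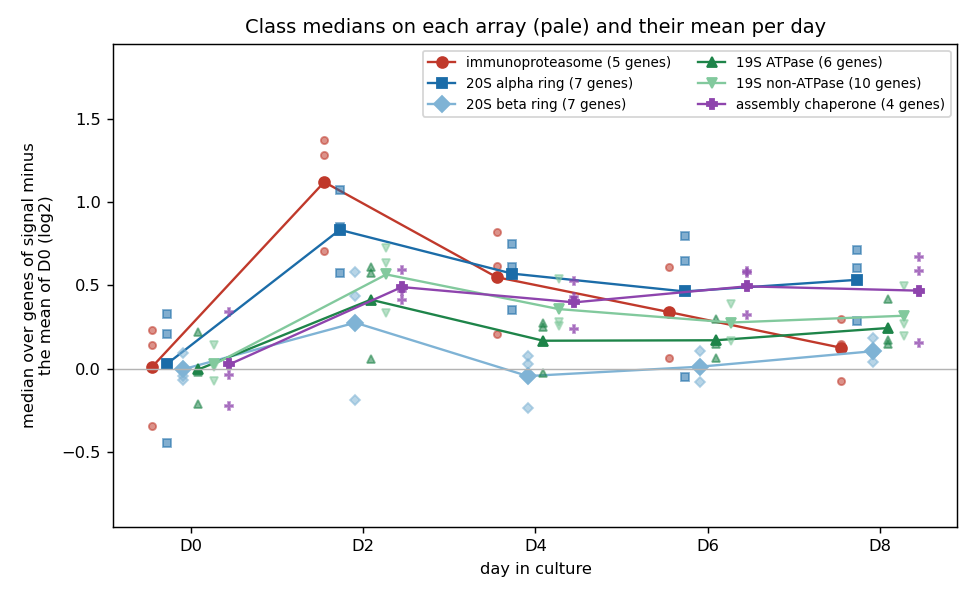
Median over the genes of a class of the VSN signal minus the mean of D0 (log2), on each array (pale points) and as the mean of 3 arrays (joined points), by day in culture. The inducible subunits peak at D2 and return towards 0 by D8, the mean of the alpha ring stays above 0, and the beta ring is near 0 on D4, D6 and D8.

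Partners of the proteasome outside the symbol family were read from lists of known genes. Of 12 measured receptors, shuttles and helpers 2 rose and 3 fell between D2 and D0. For this and the lists that follow, 10.3% of all probes rose and 8.15% fell in that comparison. Among probes detected on all arrays 22% rose and 14.9% fell, and no list was tested as a set. Pomp, the chaperone needed to close the beta ring, read 10.46, 10.52 and 9.95 at D2 against 9.31, 9.66 and 8.96 at D0 (1.00 ± 0.25, adjusted p = 0.0111). Ubqln1, a shuttle that carries ubiquitinated proteins, rose by 0.76 (adjusted p = 0.0108). Zfand2a, an arsenite-inducible proteasome partner, read 10.14, 9.92 and 9.10 at D2 against 12.34, 12.65 and 12.66 at D0, far apart on every array (-2.83, adjusted p = 1.09e-05). Zfand5, which stimulates the proteasome, and Akirin2, which carries it into the nucleus, fell by 1.42 and 1.2 (adjusted p = 0.000473 and 0.000583). The receptor Adrm1 differed by 0.04 (adjusted p = 0.947). Of the ubiquitin and E1 genes only Uba6 was measured, with a difference of 0.16 (adjusted p = 0.736).

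The transcription factor Nfe2l1 restores proteasome genes when activity is short, and Nfe2l2 and the small Maf proteins act through the antioxidant response element. No named probe stood for Nfe2l1. Of 12 measured genes of this axis 1 rose and 4 fell between D2 and D0. Nfe2l2 read 13.26, 13.27 and 12.43 at D0, 11.60, 11.40 and 11.60 at D2, 12.36, 12.30 and 12.13 on D4, 12.47, 12.45 and 12.33 on D6, and 12.49, 12.51 and 12.51 on D8. It was lowest on the day on which most members were highest (-1.46 ± 0.22 between D2 and D0, adjusted p = 0.000235), and higher on D8 than at D2 (0.97, adjusted p = 0.0319). Only RNA was read, and a link between Nfe2l2 and the levels of the members was not tested. Mafk and Mafg fell by 2.59 and 1.57 at D2 (adjusted p = 5.67e-05 and 2.46e-05), and Maff was at least 24.2-fold lower at D2 than at D0, since it was not detected at D2 (adjusted p = 1.32e-08). Sel1l, of the machinery that pulls proteins out of the endoplasmic reticulum, rose by 0.74 (adjusted p = 0.0189), and Vcp, its ATPase, differed by -0.42 (adjusted p = 0.18).

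Genes that act downstream of the immunoproteasome in class I antigen processing were read the same way. Of 16 measured 5 rose and 0 fell between D2 and D0, with a median of 0.76. Of all probes 10.3% rose, and of those detected on all arrays 22%. Tapbp (tapasin), which loads peptide onto class I, read 10.42, 10.31 and 10.32 at D0, 12.47, 12.27 and 11.91 at D2, between 10.95 and 11.25 on D4, 10.89, 11.10 and 11.51 on D6, and 10.93, 10.81 and 11.13 on D8. Every later array lay above D0 and every D2 array above all others (1.87 ± 0.21 for D2 against D0, adjusted p = 2e-05, and -1.26 for D8 against D2, adjusted p = 0.0056). Tap2, a subunit of the peptide transporter in the membrane of the endoplasmic reticulum, read 8.40, 7.82 and 8.13 at D2 against 7.22, 6.62 and 7.31 at D0 (1.07 ± 0.25, adjusted p = 0.00667). Tap1, its partner, read 8.76, 8.50 and 8.28 at D2 against 7.63, 7.53 and 8.13 at D0 (0.75, adjusted p = 0.0764). The class I genes RT1-N3 and RT1-S3 rose by 1.68 and 1.37 (adjusted p = 0.000408 and 0.00209), and the trimming peptidase Erap1 by at least 1.59-fold (adjusted p = 0.000552). RT1-N3 was lower on D8 than at D2 (-1.22, adjusted p = 0.0285). B2m, the light chain of class I, differed by -0.37 between D2 and D0 (adjusted p = 0.205). RT1 genes are near-identical copies, and a probe may read several. The GAAA repeat was found in 6 of 14 promoters of this list, those of Tap1, Tap2, Tapbp, B2m, RT1-N3 and RT1-S3.

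Of 8 measured interferon and class I regulators 2 rose and 2 fell between D2 and D0. Stat2, the transducer of type I interferon that binds the interferon-stimulated response element, read 10.07, 9.73 and 9.64 at D2 and 8.82, 8.89 and 8.76 at D8, against 7.04, 6.87 and 7.30 at D0. The days did not overlap (2.74 ± 0.20 for D2 and 1.75 for D8 against D0, adjusted p = 3.71e-07 and 2.16e-05), and D8 was below D2 (-0.99, adjusted p = 0.0185). Irf9, its partner, rose by 0.78 at D2 (adjusted p = 0.0472). Irf1, the interferon-gamma-induced factor known to drive Psmb9 and Tap1 in other species, read 12.40, 12.39 and 12.39 at D2 against 13.39, 14.24 and 12.82 at D0 (-1.09 ± 0.29, adjusted p = 0.0148), and was lower still at D8 (-1.42, adjusted p = 0.00245). Jak2 fell by 0.91 (adjusted p = 0.00152). Socs1 was detected on 0 of 15 arrays, and Nlrc5 had no named probe.

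**Figure D5:**
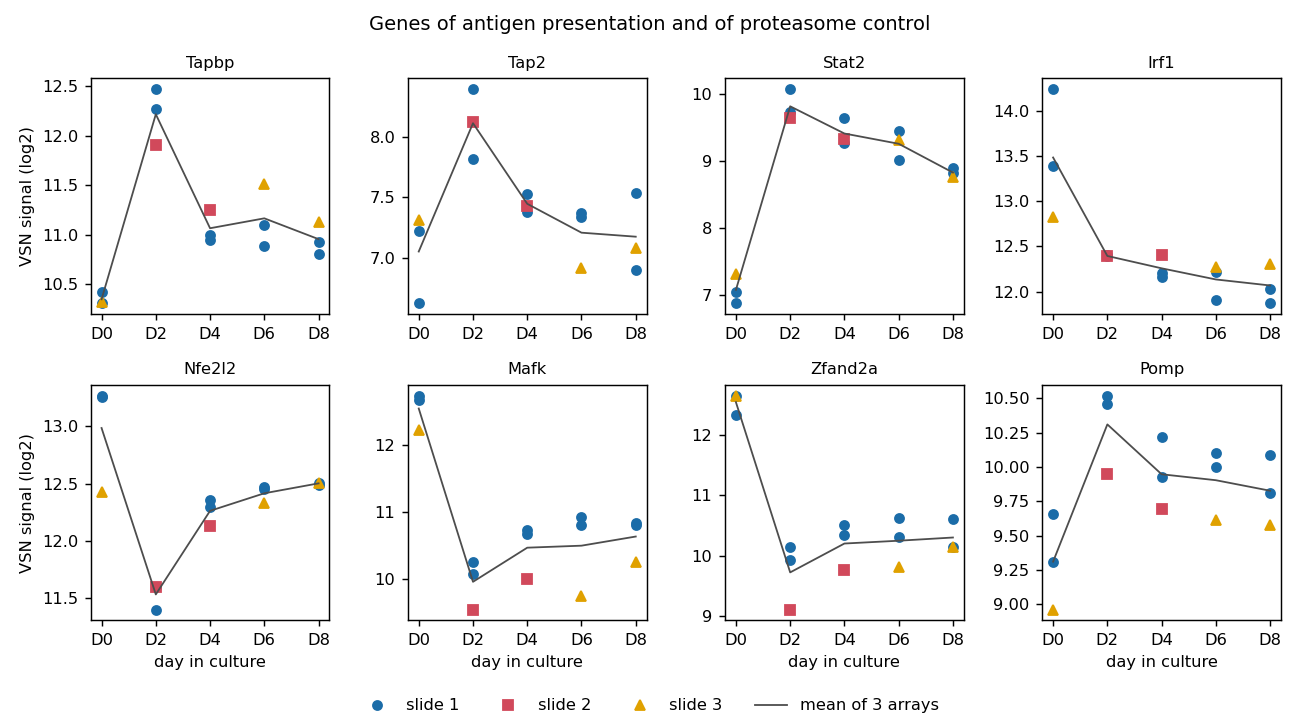
VSN signal (log2) of 8 genes of antigen presentation and of proteasome control on each array by day in culture; points are arrays by slide and lines join the means of 3 arrays. Tapbp, Tap2, Stat2 and Pomp are highest at D2, Nfe2l2, Mafk and Zfand2a are lowest there, and Irf1 is highest at D0.

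Leukocytes carry much immunoproteasome, so their markers were read beside these genes. Of 14 measured leukocyte markers 0 rose and 4 fell between D2 and D0 (Lcp1, Cd3d, Nkg7 and Prf1), with a median of -0.53. The summed raw signal of the 14 was 20340 to 29700 at D0, 21060 to 29560 at D2, 26310 to 51900 on D4, 20700 to 42440 on D6 and 18370 to 31750 on D8. It overlapped between D2 and D0 and was highest on arrays of D4, while the inducible subunits were highest at D2. The pan-leukocyte gene Ptprc differed by -0.04 at D2 (adjusted p = 0.979), and Ms4a1 of B cells was detected on 0 of 15 arrays. Between D8 and D0 3 of the 14 leukocyte markers rose and 4 fell, with a median of -0.57. Of all probes 9.98% rose and 8.06% fell in that comparison. Among those that rose were the myeloid markers Tyrobp and Aif1 (2.61 and 1.84, adjusted p = 0.00212 and 0.00839). Markers of other cells also moved over the same days. The summed raw signal of 3 erythroid markers was 32000 to 49770 at D0, 5301 to 12620 on D2, 599.9 to 3171 on D4, 490.5 to 1240 on D6 and 477.4 to 1170 on D8. These were Hbb, Hba-a1 and Alas2, of which Alas2 was detected on 0 of 15 arrays. It was highest at D0, not at D2. The sum of the airway markers Scgb1a1 and Scgb3a2 was 2144 to 5513 at D8 against 37850 to 45370 at D0, and both fell between D8 and D0, while Scgb3a2 alone fell between D2 and D0. Of 4 fibroblast markers 0 passed between D2 and D0 and 1 rose between D8 and D0 (Col1a1), with sums of 1446 to 15400 at D8 and 999.8 to 1694 at D2, against 819.6 to 901.4 at D0. Of the endothelial markers Cldn5 fell between D2 and D0 and Cdh5 was detected on 0 of 15 arrays. The part of leukocyte or other cells' RNA in the levels of single subunits was not tested.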

How the data were processed

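Total RNA was hybridized to Illumina RatRef-12 arrays. The authors made the raw probe intensities and their detection p-values with BeadStudio from array images and deposited them unnormalized. They also deposited log2 values, made by VSN through LUMI in R 2.11.1 with LIMMA for tests; each array's values are a log2 of a linear function of its raw signal. No depth applies to arrays, and 3 arrays a day limit the precision.

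VSN was refitted to the raw signals of all probes and arrays by maximum likelihood (trimming quantile 0.9, 7 rounds, 5 slices) and put on the log2 scale. In R 4.3.3 with limma 3.58.1, 1 mean per day was fitted and the Benjamini-Hochberg adjustment ran over all 22523 probes (threshold 0.05); statmod 1.5.0 served the random block. Adjusted p-values in the text come from limma, except that of the ratio comparisons, which comes from the exact permutation tests. A probe with a detection p under 0.01 was detected, and a gene undetected on all arrays of a day has only a bound there. The platform annotation gives a symbol for 13793 probes. The pipeline was tested on simulated data.

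The members and lists were chosen with earlier results of these data known. The genes named are the inducible and constitutive catalytic subunits, Psme1, Psme2, Psme4, the measured Psmg genes, the 4 largest calls per direction in D8 against D0, D2 against D0 and D8 against D2, and a fixed set of partners and regulators with up to 4 calls per list. The ratios within an array were added after the data were seen, and Psma1, Psma5, Psma7, Psmb1, Psmc1, Psmc2, Psmc3, Psmc4, Psmc6, Psmd6, Psmd8 and Psmd13 were named after their values were seen, as were Uba6, Vcp and Socs1. Alternatives were neqc, quantile normalization, the deposited values, a common median, leaving out dim probes, fitting the compared days alone, treating slide as a fixed or random effect or keeping slide 1 alone, other thresholds, trend and robust eBayes, all probes of a gene, a regression on day, and leaving out each array.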

Additional observations from a re-analysis of the deposited data

How the results depend on the processing

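No named member reversed a called change. Across 14 named genes, 3 comparisons and their alternatives 729 of 840 values kept side of the threshold, 38 lost and 72 gained a call. The 729 include uncalled changes that switched sign by little against their SE. One of these was Psmb8 between D8 and D0, at 0.06 and from -0.13 to 0.23 over the alternatives. The uncalled change of Psme4 between D2 and D0 switched sign by more, to 0.34 with scaling to a common median. The count of members that passed was less stable than the changes, and the cause was not tested. It was 11 between D2 and D0, 2 between D8 and D0, 1 between D8 and D2 and 5 over all days. Of all probes 18.5%, 18%, 2.49% and 18.1% passed. Counts below are in the same order, with the shares of all tested probes in parentheses. With neqc they were 26, 13, 4 and 12 (21.5, 21.1, 4.53 and 22.6%). Quantile normalization gave 25, 16, 5 and 17 (21.5, 21.3, 5.33 and 22.9%). The deposited values gave 29, 15, 3 and 16 (21.7, 21.6, 4.64 and 23%). The stricter filter on dim probes gave 22, 9, 3 and 8 (45.3, 45.2, 9.76 and 47.3%). The milder one gave 20, 6, 2 and 8 (38.1, 38, 7.09 and 39.3%). Slide group as a term gave 25, 11, 4 and 11 (25.5, 25.3, 5.47 and 26.9%). Slide as a random block gave 21, 9, 3 and 10 (22.8, 25.1, 4.52 and 25.6%). Slide 1 alone gave 17, 5, 5 and 9 (21.2, 21.2, 3.69 and 21.1%). Trend and robust eBayes gave 20, 5, 3 and 9 (19.9, 19.7, 3.39 and 20.5%). At an adjusted p of 0.01 the counts were 5, 1, 0 and 1 (12, 11.9, 1.02 and 12.2%). The first 3 counts were 3, 0 and 0 with only the days compared (12.3, 11.4 and 0.901%). They were also 3, 0 and 0 with a log2 change of at least 1 (13, 12.8 and 2.05%). Scaling to a common median gave 1 between D8 and D0 (13.8%) and 0 between D8 and D2 (1.91%). A regression on day left 0 for D8 against D0 (11%). For D2 against D0, 8 of the 37 members detected on all arrays passed in the main fit, against 36.9% of such probes. The count was 23 with neqc (46.1%), 23 with quantile normalization (48.5%) and 26 with the deposited values (49%). It was 19 with the stricter filter (47.6%), 17 with the milder one (45.5%) and 22 with slide group as a term (49.8%). Slide as a random block gave 18 (45.4%), slide 1 alone 16 (40.1%) and trend and robust eBayes 17 (42.7%). A common median gave 14 (38.1%), an adjusted p of 0.01 gave 4 (24.9%), only the days compared 2 (23.3%). A log2 change of at least 1 gave 3 (23.5%). Between D4 and D2 0 of the 43 members passed, against 1.37% of all probes. In that step 2 passed with quantile normalization (3.98%), the deposited values (3.33%), the stricter filter (6.51%) or slide group as a term (4.14%). It was 1 with neqc (3.2%), slide as a random block (3.99%), slide 1 alone (2.46%) or trend and robust eBayes (2.31%). Leaving out 1 array gave 5 to 13 between D2 and D0 (14.4 to 18% of all probes) and 1 to 4 between D8 and D0 (14.3 to 17.6%). It gave 0 to 2 between D8 and D2 (1.09 to 1.82%) and 1 to 6 over all days (14.1 to 18.1%). The rises of Psme2 and Psmb10 between D2 and D0 passed in each of 20 alternatives, at 1.31 to 1.76 and 1.06 to 1.59, and that of Psmb8 in 18 of 20. Over all these alternatives the median change of the members was 0.41 to 0.84 between D2 and D0 and 0.09 to 0.41 between D8 and D0. The filters raised the median of all tested probes to as much as 0.16 between D2 and D0, by removing dim probes.

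No paired analysis was possible because the labels give the arrays no replicate numbers. Psmd8, Psmc6 and Psma3 lay near background, and their levels are rough. Slides 2 and 3 hold 1 array of each day they cover.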
